A study of Mus musculus with 12 samples.

Results

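The resistin family and other adipokines were described through 6 genes, Retn, Retnla, Nampt, Rarres2, Apln and Nrg4, out of 23474 genes in the deposited table of eWAT (epididymal white adipose tissue) expression. They were chosen by gene symbol, with no threshold on their values, and all 6 symbols matched an Ensembl identifier of the table. The series holds 12 RNA-seq libraries, 3 in each of 4 groups, from male C57BL/6J mice that started their diets at 5 weeks of age and kept them for 12 weeks. The ND group ate a normal diet. The HFD group ate a high-fat diet, and the GT and TJ groups ate the same high-fat diet with an addition, which was an ethanol extract of green tea at 0.25% (w/w) in GT and Taeeumjowitang (TJ), a mixture of medicinal herbs, at 3% (w/w) in TJ. The labels give 10 mice per group and an age of 17 weeks. By the methods, eWAT came from 3 randomly chosen mice in each of the HFD and TJ groups. They do not state outright that each library is 1 mouse, and they do not describe the mice behind the ND and GT libraries. Whole tissue was used, so all cell types of the fat pad contributed RNA. Both additions are mixtures of compounds, and each was given at a single dose.

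Adipokines are signalling proteins that adipose tissue releases. Resistin, the product of Retn, is made by adipocytes in mice and has been linked to insulin resistance, and its relative RELM-alpha, the product of Retnla, is known from alternatively activated macrophages and is also made in mouse white fat. Neuregulin 4 (Nrg4) belongs to the EGF family, binds ErbB receptors and is known as a factor of brown fat that acts on the liver. Chemerin (Rarres2) is secreted as an inactive precursor, is activated by proteases and binds Cmklr1. Apelin (Apln) is a peptide ligand of the receptor Aplnr. Nampt, known outside the cell as visfatin, is the rate-limiting enzyme of the pathway that makes NAD from nicotinamide.

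In GRCm38 (GENCODE release M21), Retn (ENSMUSG00000012705) lies on chromosome 8 from 3655770 to 3660110 and Retnla (ENSMUSG00000061100) on chromosome 16 from 48842551 to 48844461, both on the plus strand. Nampt (ENSMUSG00000020572) lies on the plus strand of chromosome 12 from 32819545 to 32853349. The other members are on minus strands, Rarres2 (ENSMUSG00000009281) on chromosome 6 from 48569696 to 48572789, Apln (ENSMUSG00000037010) on chromosome X from 48025146 to 48034853 and Nrg4 (ENSMUSG00000032311) on chromosome 9 from 55220222 to 55326844. All are protein-coding genes. Rarres2 overlaps Lrrc61 and Nrg4 overlaps Fbxo22, each on the opposite strand, and no strand-specific counting is stated, so fragments from the shared stretches cannot be told apart. Levels are in FPKM, fragments per kilobase of transcript and per 1e+06 mapped fragments. Lrrc61 was low, with group means of 12.1 to 17.1 FPKM, and Fbxo22 had group means of 20.7 to 32.2 FPKM. Nampt overlaps the noncoding gene Gdap10 on the same strand. Among other transcripts, the nearest relative of Retnla was Retnlg, with 82.8% identity over 599 aligned bases, and Retnlg itself was at or under 0.293 FPKM in every library.

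Retn, Retnla and Nrg4 were the members that passed the test both with TJ and with GT, so their RefSeq promoters (GRCm38.p6, 250 bases before to 50 bases after the annotated start) are shown, each read 5′ to 3′ on the strand of its gene. They are chr8:3655520-3655819 on the plus strand for Retn, chr16:48842359-48842658 on the plus strand for Retnla and chr9:55283576-55283875 on the minus strand for Nrg4. The last is the start of a shorter Nrg4 transcript inside the GENCODE span. Capitals mark matches on either strand to TTGCNNAA (C/EBP-like), AGGTCA (the motif of many nuclear receptors), TATAAA (the element bound by TBP) or TTC and GAA spaced by 4 bases (STAT6-like).
Retn: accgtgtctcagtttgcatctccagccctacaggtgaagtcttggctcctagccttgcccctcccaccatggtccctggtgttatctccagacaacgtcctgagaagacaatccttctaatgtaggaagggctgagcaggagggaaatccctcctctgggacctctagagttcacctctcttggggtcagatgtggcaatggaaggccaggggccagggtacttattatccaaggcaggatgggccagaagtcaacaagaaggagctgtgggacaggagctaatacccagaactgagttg
Retnla: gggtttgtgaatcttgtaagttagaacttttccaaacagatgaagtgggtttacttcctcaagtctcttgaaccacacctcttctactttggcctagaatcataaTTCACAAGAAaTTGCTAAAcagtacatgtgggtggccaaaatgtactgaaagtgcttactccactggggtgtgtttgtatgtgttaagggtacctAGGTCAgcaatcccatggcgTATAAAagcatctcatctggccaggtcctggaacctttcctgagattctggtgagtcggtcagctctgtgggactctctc
Nrg4: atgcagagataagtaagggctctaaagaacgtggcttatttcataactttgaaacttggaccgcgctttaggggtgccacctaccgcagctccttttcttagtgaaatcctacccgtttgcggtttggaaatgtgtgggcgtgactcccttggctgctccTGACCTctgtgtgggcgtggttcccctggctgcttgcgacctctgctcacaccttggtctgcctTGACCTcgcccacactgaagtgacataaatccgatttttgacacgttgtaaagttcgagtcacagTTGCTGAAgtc
The Retnla window held all 4 motifs, without overlaps. TTCACAAGAA began at position -145, TTGCTAAA at -134, AGGTCA at -50 and TATAAA at -30, counted from the annotated start. The Nrg4 window held the nuclear receptor motif as TGACCT at -90 and at -26 and TTGCTGAA at 40. None of the 4 sets of letters was in the Retn window, nor in the Apln window, and AGGTCA was at -151 in that of Nampt. Of 32851 promoters of this length, 10.8% held TTGCNNAA, 16.3% AGGTCA, 13.6% TATAAA and 6.95% the STAT6-like motif. These are matches of letters, and no binding was measured.

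One library stood apart before any comparison. In ND replicate 1, a list of 10 testis germ cell genes summed to 101421 FPKM and a list of 10 epididymis genes to 17506 FPKM, while 12 adipocyte markers summed to 4399 FPKM against 37162 and 25296 FPKM in ND replicates 2 and 3. Germ cell genes summed to 3377 FPKM in ND replicate 3 and to 2261 FPKM in HFD replicate 1, and epididymis genes to 1288 FPKM in HFD replicate 2. Adipoq, which encodes adiponectin, was 202 FPKM in ND replicate 1 and at least 908 FPKM in the other 11 libraries. All 12 adipocyte markers were above 0 in every library. The members' tests against the ND group are therefore given with and without ND replicate 1. Depth, estimated from the steps between FPKM values, was about 10.0M to 15.8M fragments in the ND libraries and 14.1M to 19.7M in the others, with M for 1e+06.

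Retn, Retnla and Nrg4 were upregulated in the TJ group and in the GT group compared with the HFD group. Rarres2 was higher and Nampt lower in every TJ library than in every HFD library, without passing the test, and Apln overlapped between the groups. A DEG (differentially expressed gene) needed a fold change of 1.5 or more and a p-value from limma under 0.05 after Benjamini-Hochberg adjustment, both on log2(FPKM + 1). In TJ against HFD, 3 of the 6 members were DEGs, all upregulated, where 18.5% of the 12807 tested genes were DEGs and 7.41% were upregulated DEGs. Groups did not overlap for 4 members that were higher and 1 that was lower, where this held for 20.1% and 31.4% of the tested genes. In GT against HFD, 3 of 6 members were upregulated DEGs, against 3.63% of the 12766 tested genes in either direction, 1.83% upregulated and 1.81% downregulated. In HFD against ND, 0 of 6 members passed, with 1 member and 1672 genes in all at an unadjusted p-value under 0.05, and 1.77% of 14430 tested genes were DEGs. Of all genes, 1.73% were upregulated and 0.0416% downregulated DEGs. With the replicate number as a block, 0 members and 0 genes in all passed in this comparison, and 2239 genes passed 0.05 before adjustment. Without ND replicate 1, Retn and Nrg4 were downregulated DEGs in the HFD group, where 15.4% of 13661 tested genes were DEGs and 4.34% were downregulated. Rarres2 then lay above both ND values in all HFD libraries, as 28.0% of the tested genes did, and Retn, Retnla and Nrg4 lay below, as 19.2% did. In TJ against GT, 0 of 6 passed, with 2 members and 2996 genes in all at an unadjusted p-value under 0.05, and 0.148% of 12187 genes were DEGs, 0.139% upregulated and 0.00821% downregulated. Retn, Retnla and Rarres2 were higher in every TJ than in every GT library, as 19.5% of the tested genes were. The comparisons of TJ, GT and ND with HFD share the 3 HFD libraries, so they are not independent of each other.

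**Figure D1:**
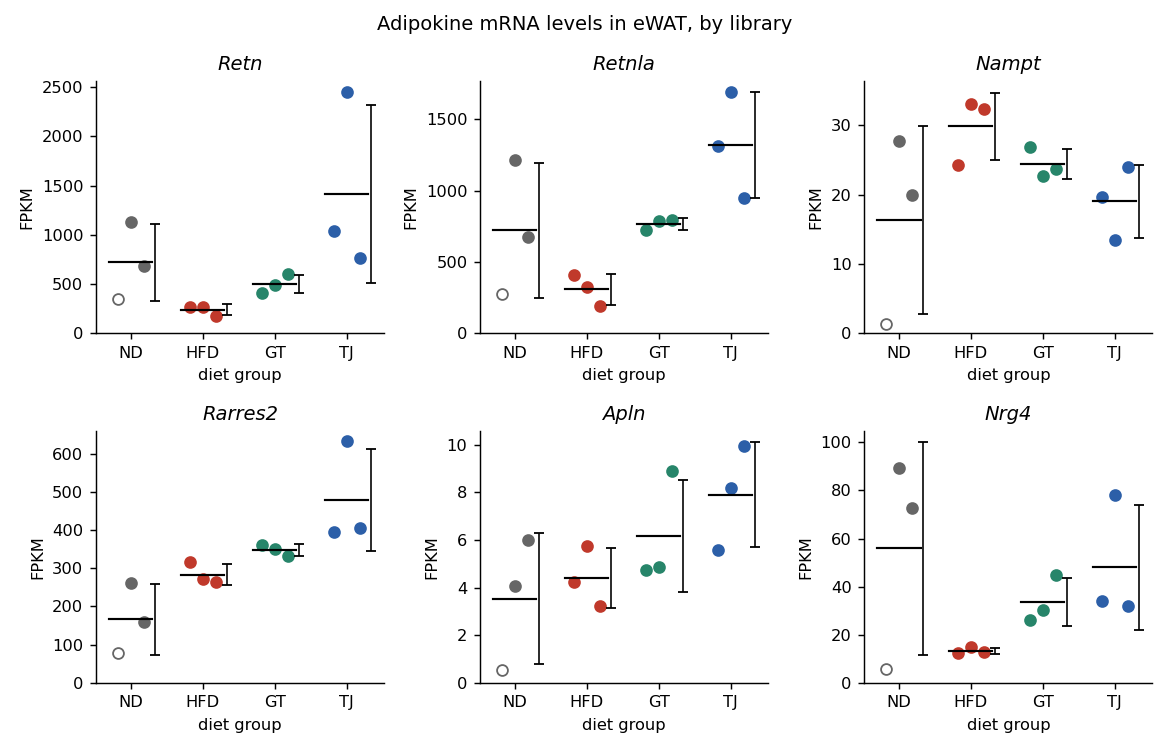
Expression of the 6 adipokine genes in FPKM (vertical axes, from 0) in each library of the ND, HFD, GT and TJ groups. Points are libraries, horizontal lines group means and bars the SD (n = 3), and the open circle is ND replicate 1. Retn, Retnla and Nrg4 were higher in all GT and all TJ libraries than in all HFD libraries, and TJ replicate 2 was the highest library for Retn, at 2449 FPKM, and for Retnla, at 1694 FPKM.

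Retn, the gene of resistin, measured 268, 270.1 and 171 FPKM in the HFD libraries and 1037, 2449 and 759 FPKM in the TJ libraries. In the GT libraries it measured 411, 486 and 598 FPKM, and in the ND libraries 350.0, 1128 and 679 FPKM, the first of these in ND replicate 1. All GT values lay above all HFD values and below all TJ values, and the ND values lay above all HFD values. Group means were 236 ± 56.4 FPKM in HFD, 498 ± 93.9 in GT, 719 ± 391 in ND (903 ± 318 without replicate 1) and 1415 ± 906 in TJ (SD, n = 3, and n = 2 without replicate 1). ND overlapped both of its neighbours in this order. The TJ mean was 5.98 times the HFD mean (3.80 times without TJ replicate 2), and the log2 fold change was 2.42 (SE, standard error, 0.43, limma adjusted p = 0.0248), the 12th highest of all tested genes. GT against HFD gave 1.09 (SE 0.22, limma adjusted p = 0.0477), with a mean 2.11 times that of HFD. These are mRNA levels of the fat pad. For the protein, the authors report less resistin in the plasma of TJ mice than of HFD mice, the opposite direction.

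Against ND, Retn had a log2 fold change of -1.47 in HFD (SE 0.52, limma adjusted p = 0.349, range 0.00164 to 0.823 over 19 alternatives) and was not a DEG, although the groups did not overlap, as in 5.89% of tested genes that were lower. Without ND replicate 1 it fell by 1.91 on the log2 scale (SE 0.31, limma adjusted p = 0.0163). In TJ against GT, the log2 fold change of 1.34 did not pass (SE 0.41, limma adjusted p = 0.136), and without TJ replicate 2, the library with the highest Retn, it was 0.85. The mean of Retn in TJ was 1.97 times that of the 3 ND libraries and 1.57 times that of ND replicates 2 and 3, and 0.994 times the latter without TJ replicate 2. TJ and ND values overlapped. In GT the mean was 0.693 times that of ND and 0.552 times that of ND replicates 2 and 3.

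The means of Retnla came in the order HFD, ND, GT and TJ. Its values were 408, 320.2 and 189.5 FPKM in HFD, 721, 789 and 794 FPKM in GT and 1311, 1694 and 951 FPKM in TJ. ND replicates 1 to 3 had 272, 1218 and 672 FPKM. Again all GT values lay between the HFD and the TJ values, whereas the ND values overlapped with those of each other group. Means were 306 ± 110.1 FPKM in HFD, 721 ± 475 in ND (945 ± 386 without replicate 1), 768 ± 40.8 in GT and 1319 ± 372 in TJ (SD, n = 3, and n = 2 without replicate 1). The TJ mean was 4.31 times that of HFD, a log2 fold change of 2.13 (SE 0.33, limma adjusted p = 0.0223), and the GT mean 2.51 times, with 1.39 (SE 0.26, limma adjusted p = 0.0433).

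In HFD against ND, the log2 fold change of Retnla was -1.05 (SE 0.65, limma adjusted p = 0.497, range 0.00698 to 0.889 over 19 alternatives). Without ND replicate 1 it was -1.63 (SE 0.41, limma adjusted p = 0.0556), and all HFD values then lay below both ND values. Retnla has a short transcript of 599 nt, and its sign against ND turned to 0.21 when the trend of fold change with transcript length was removed. In TJ against GT, its log2 fold change was 0.74 (SE 0.24, limma adjusted p = 0.145), and 0.13 after removal of that trend. Within each library, Retn was 57.0% to 75.3% of Retnla in GT and 65.6% to 90.4% in HFD. In TJ it was 79.1%, 145% and 79.8%, so that Retn exceeded Retnla in TJ replicate 2 and not in the other TJ libraries.

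Nrg4 was at 12.4, 14.8 and 12.7 FPKM in HFD. It measured 25.9, 30.3 and 44.8 FPKM in GT and 34.0, 78.0 and 32.1 FPKM in TJ. ND replicates 2 and 3 had 89.3 and 72.7 FPKM, and ND replicate 1 had 5.74 FPKM, which rests on roughly 121 fragments. All HFD values lay below all GT and TJ values, which overlapped each other, and the HFD values lay between ND replicate 1 and the other ND libraries. Means were 13.3 ± 1.30 FPKM in HFD, 33.7 ± 9.90 in GT, 48.0 ± 26.0 in TJ and 55.9 ± 44.2 in ND (81.0 ± 11.7 without replicate 1, SD, n = 3, and n = 2 without replicate 1). The log2 fold change was 1.66 in TJ against HFD (SE 0.33, limma adjusted p = 0.0274) and 1.25 in GT against HFD (SE 0.20, limma adjusted p = 0.0379), with ratios of means of 3.62 and 2.54.

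In HFD against ND, the fold change of Nrg4 moved with ND replicate 1 by more than that of the other 5 members. Its log2 fold change was -1.32 with this library (SE 1.01, limma adjusted p = 0.531, range 1.0e-04 to 0.823 over 19 alternatives) and -2.52 without it (SE 0.15, limma adjusted p = 0.00104). The mean of HFD was 0.238 times that of the 3 ND libraries and 0.164 times that of ND replicates 2 and 3. For GT these ratios were 0.602 and 0.416, and for TJ 0.859 and 0.593, the last 0.408 without TJ replicate 2. In TJ against GT the log2 fold change was 0.41 (SE 0.35, limma adjusted p = 0.453), and 0.01 without TJ replicate 2.

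The calls for Retn, Retnla and Nrg4 in TJ against HFD depended on single libraries, and the fold changes kept their direction. When any HFD library or TJ replicate 1 was left out, none of the 3 genes passed (limma adjusted p = 0.0512 to 0.115), and all 3 passed without TJ replicate 2 or 3. Of all tested genes, 0 to 3412 passed in the same fits, so the calls of other genes moved too. Over these 6 fits, the log2 fold changes were 1.93 to 2.78 for Retn, 1.82 to 2.38 for Retnla and 1.26 to 1.88 for Nrg4. In GT against HFD, all 3 passed without GT replicate 1 and none passed without any other single library (limma adjusted p = 0.0509 to 0.185), with log2 fold changes of 0.87 to 1.22, 1.08 to 1.64 and 1.03 to 1.41. There, 4 to 1107 of all tested genes passed when single libraries were left out. With no filter on low values, or with all 12 libraries in 1 fit, 0 of the 3 passed in either comparison. Of all genes, 382 and 1 passed in these fits of TJ against HFD, and 5 and 1 in those of GT against HFD. In GT against HFD, 0 of the 3 passed with the replicate block (limma adjusted p = 0.0955 to 0.107), with eBayes without the trend (0.0572 to 0.0656) or with the 11 libraries other than ND replicate 1 in 1 fit (0.0708 to 0.210). These fits called 5, 67 and 139 of all genes. In an exact two-sided permutation test on FPKM, Retn, Retnla and Nrg4 each reached p = 0.1 in both comparisons, the smallest that 3 libraries against 3 allow.

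**Figure D2:**
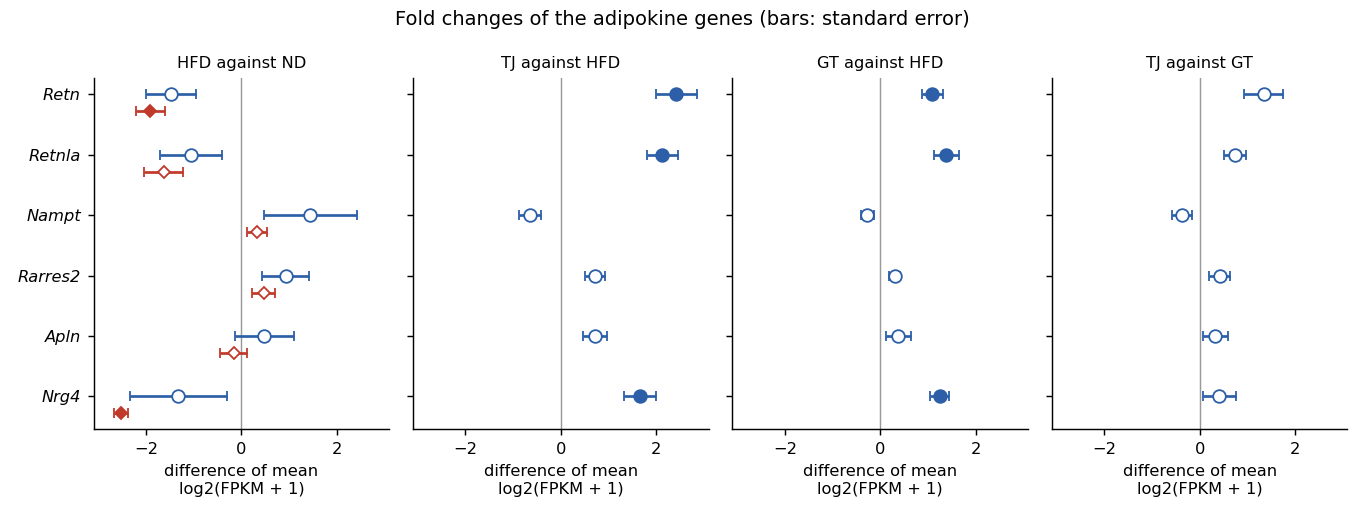
Differences of mean log2(FPKM + 1) (horizontal axes) of the 6 genes in each comparison, with the standard error as bars and DEGs filled. Red diamonds give HFD against ND without ND replicate 1. Retn, Retnla and Nrg4 were above 0 and filled for TJ and GT against HFD, and Nrg4 moved from -1.32 to -2.52 in HFD against ND when ND replicate 1 was left out.

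Rarres2 was higher in each group than in the one before it, in the order ND, HFD, GT and TJ, without passing the test in any comparison. Its values were 77.6, 261 and 159 FPKM in ND, 315, 271 and 263 FPKM in HFD, 362, 349.7 and 331 FPKM in GT and 395, 632 and 406 FPKM in TJ. No group overlapped with the next. Such a higher level without overlap was seen in 20.5% of tested genes for HFD against ND and in 12.3% for GT against HFD. Means were 166 ± 91.9, 283 ± 28.2, 348 ± 15.7 and 478 ± 134 FPKM (SD, n = 3), and the ND mean was 210.1 ± 72.1 FPKM without replicate 1 (SD, n = 2). In TJ against HFD the log2 fold change was 0.72 (SE 0.21, limma adjusted p = 0.0532), and Rarres2 was a DEG under 6 of 18 alternatives (range of limma adjusted p 0.0327 to 0.387). These were median-of-ratios scaling, the filter at 5 FPKM, array weights, removal of the length trend, the 11 libraries other than ND replicate 1 in 1 fit and the fit without TJ replicate 3 (limma adjusted p = 0.0359 to 0.0492). Without TJ replicate 2 the log2 fold change was 0.50, under the threshold of 1.5-fold (limma adjusted p = 0.0327). GT against HFD gave 0.30 (SE 0.11, limma adjusted p = 0.122) and HFD against ND 0.93 (SE 0.49, limma adjusted p = 0.494), or 0.47 without ND replicate 1 (SE 0.24, limma adjusted p = 0.258). The direction of Rarres2 against ND was thus opposite in sign to those of Retn, Retnla and Nrg4.

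Apln was the lowest of the members. It measured 4.24, 5.75 and 3.24 FPKM in HFD, 4.74, 4.87 and 8.90 FPKM in GT and 5.57, 8.20 and 9.96 FPKM in TJ. ND replicates 2 and 3 had 4.06 and 6.00 FPKM, and ND replicate 1 had 0.558 FPKM, which corresponds to roughly 18 fragments. Each group overlapped with each other group. Means were 3.54 ± 2.76 FPKM in ND, 4.41 ± 1.26 in HFD, 6.17 ± 2.36 in GT and 7.91 ± 2.21 in TJ (SD, n = 3). The log2 fold change was 0.71 in TJ against HFD (SE 0.25, limma adjusted p = 0.0768) and passed with median-of-ratios scaling (limma adjusted p = 0.0443) and quantile normalization (limma adjusted p = 0.0267, the lowest of a range up to 0.515 over 18 alternatives). In GT against HFD it was 0.38 (SE 0.26, limma adjusted p = 0.361). Against ND it was 0.48 (SE 0.62, limma adjusted p = 0.685) and turned to -0.16 without ND replicate 1.

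Nampt was the member that was lower with TJ. It measured 24.3, 33.0 and 32.3 FPKM in HFD and 19.6, 13.5 and 24.0 FPKM in TJ. The GT libraries had 26.9, 22.7 and 23.7 FPKM and the ND libraries 1.33, 27.8 and 19.9 FPKM, the lowest in ND replicate 1. All TJ values lay below all HFD values, by a narrow margin between TJ replicate 3 and HFD replicate 1, and the GT values overlapped with both groups. Means were 29.9 ± 4.86 FPKM in HFD, 24.4 ± 2.19 in GT, 19.0 ± 5.28 in TJ and 16.3 ± 13.6 in ND (23.8 ± 5.60 without replicate 1, SD, n = 3, and n = 2 without replicate 1). In TJ against HFD the log2 fold change was -0.65 (SE 0.23, limma adjusted p = 0.0806), and Nampt was not a DEG. Over 18 alternatives it was a downregulated DEG without TJ replicate 3 (-0.82, limma adjusted p = 0.0429) and with the 11 libraries other than ND replicate 1 in 1 fit (limma adjusted p = 0.0471), and adjusted p-values ranged up to 0.697. Its log2 fold change was -0.43 without TJ replicate 2 and -0.36 with the trend of transcript length removed. GT against HFD gave -0.27 (SE 0.14, limma adjusted p = 0.246). ND replicate 1 had roughly 61 fragments of Nampt. HFD against ND gave 1.45 with ND replicate 1 (SE 0.97, limma adjusted p = 0.505) and 0.32 without it (SE 0.21, limma adjusted p = 0.385).

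Across all 4 groups, the F test of limma called 0 of the 6 members (adjusted p = 0.0786 for Retn, 0.113 for Rarres2, 0.119 for Retnla, 0.339 for Apln, 0.435 for Nrg4 and 0.466 for Nampt), with 3.77% of 13935 genes called. Before adjustment, 3 members and 3364 of the 13935 genes had p-values under 0.05. Without ND replicate 1, it called 4, namely Retn, Retnla, Rarres2 and Nrg4, where 31.5% of 13120 tested genes were called.

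Reported partners of resistin included genes that were lower in TJ than in HFD, where Retn was higher. Of a list of 6 relatives and reported partners, 4 were tested in TJ against HFD. Cap1 and Tlr4 were downregulated DEGs, 0 genes were upregulated, with a list median of -0.78 on the log2 scale, beside -0.14 for all tested genes. Cap1, an adenylyl cyclase-associated protein reported to bind human resistin, was at 166, 172 and 211 FPKM in HFD and 97.3, 69.1 and 105 FPKM in TJ, a log2 fold change of -1.03 (SE 0.20, limma adjusted p = 0.0261). Tlr4, the endotoxin receptor, was at 11.9, 17.4 and 16.1 FPKM in HFD and 5.66, 4.40 and 7.54 FPKM in TJ, with -1.24 (SE 0.22, limma adjusted p = 0.0247). Both were lower in every TJ library than in every HFD library. For GT, limma called 0 of 4 (3 before adjustment, median -0.41), with Cap1 at -0.67 (limma adjusted p = 0.0505) and Tlr4 at -0.47 (limma adjusted p = 0.107). Cap1 was an upregulated DEG in HFD against ND without ND replicate 1, at 1.34 (limma adjusted p = 0.00485), and had 1.56 with it (limma adjusted p = 0.0903). The other family members were not expressed at a level that could be tested. Retnlb was listed at 0 in 11 of 12 libraries and Retnlg was between 0 and 0.293 FPKM.

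For Nrg4, a list of 13 neuregulins, EGF family ligands and ErbB receptors held 5 tested genes in TJ against HFD. Of these, 1 was a downregulated DEG and 0 were upregulated (median -0.33). Among all tested genes, 18.5% were DEGs, and the median was -0.14. The DEG of the list was Egfr, at 11.2, 15.5 and 15.0 FPKM in HFD and 8.10, 6.34 and 8.58 FPKM in TJ (log2 fold change -0.78, SE 0.17, limma adjusted p = 0.0317). Erbb4, a receptor of neuregulin 4, was at 0.0091 to 0.356 FPKM over the 12 libraries and was not tested. Erbb3 was highest in ND replicate 3, at 4.90 FPKM, and HFD replicate 2, at 3.71 FPKM, and was at 0.284 to 0.367 FPKM in TJ (log2 fold change -0.90 against HFD, SE 0.42, limma adjusted p = 0.149). Erbb2 had 0.31 (SE 0.21, limma adjusted p = 0.294). With GT, limma called 0 of 5 (also 0 before adjustment, median -0.02), and 0 of 5 also in HFD against ND with and without ND replicate 1 (1 and 2 before adjustment). The median in that comparison was 0.41, and -0.25 without that library. Nrg1 and Nrg2 stayed under 0.6 FPKM in every library.

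Of 13 chemerin receptors and proteases, 10 were tested in TJ against HFD, with 3 downregulated and 0 upregulated DEGs and a median log2 fold change of -0.86. The DEGs were proteases, the mast cell tryptase Tpsb2 (-1.83, limma adjusted p = 0.0196) and the plasminogen activators Plau (-1.13, limma adjusted p = 0.0287) and Plat (-0.75, limma adjusted p = 0.0257). The chemerin receptors were not DEGs. Cmklr1 was at 89.7, 87.0 and 92.5 FPKM in HFD and 109, 142 and 90.7 FPKM in TJ (0.31, SE 0.18, limma adjusted p = 0.223). Its GT values of 110.0, 169 and 195 FPKM lay above all HFD values (0.77, SE 0.20, limma adjusted p = 0.0721). Gpr1 stood at 1.08 to 1.62 FPKM in HFD and 2.23 to 2.41 FPKM in TJ (0.49, limma adjusted p = 0.0979), and Ccrl2 at 5.20 to 7.63 and 4.25 to 6.16 FPKM (-0.24, limma adjusted p = 0.338). Tpsb2 was also the single DEG of 9 in GT against HFD (-1.47, limma adjusted p = 0.0361, list median -0.52). Against ND, the cathepsins Ctss (5.27, limma adjusted p = 0.0413, and 4.37 without ND replicate 1) and Ctsk (5.05, limma adjusted p = 0.0450, and 4.15) were the upregulated DEGs of 9 in HFD (median 1.69). Without ND replicate 1 there were 5 upregulated DEGs and 1 downregulated, Cmklr1, at -1.04 (limma adjusted p = 0.0287), with a median of 1.41.

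The receptor of apelin, Aplnr, had 23.4, 23.7 and 22.4 FPKM in HFD and 23.5, 14.2 and 34.9 FPKM in TJ, on both sides of the HFD values (log2 fold change -0.03, SE 0.29, limma adjusted p = 0.951). It had 24.7, 24.3 and 19.0 FPKM in GT and 0.746, 6.08 and 7.06 FPKM in ND. All ND values lay below all HFD values, and Aplnr passed in HFD against ND without ND replicate 1 (1.68, SE 0.13, limma adjusted p = 0.00183) and not with it (2.38, SE 0.63, limma adjusted p = 0.181). Of the 3 tested genes of the apelin list, limma called 0 in TJ against HFD (2 before adjustment, median -0.31) and in GT against HFD (0 before adjustment, median -0.04). Between HFD and ND the count was 0 of 3 (2 before adjustment, median 1.88), and 2 of 3, both upregulated, without ND replicate 1 (median 1.60).

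Around Nampt, 15 of 18 genes of NAD synthesis and use were tested in TJ against HFD, with 3 upregulated and 2 downregulated DEGs and a median of 0.16. The upregulated ones were the NAD-consuming Cd38 (0.68, limma adjusted p = 0.0393), Naprt, which makes NAD from nicotinic acid (0.65, limma adjusted p = 0.0487), and Nnmt, which methylates nicotinamide (0.61, limma adjusted p = 0.0393). Nnmt measured 89.9, 80.1 and 75.9 FPKM in HFD and 126, 145 and 109 FPKM in TJ. Downregulated were Bst1, an NAD-cleaving surface enzyme (-1.23, limma adjusted p = 0.0248), and Parp1, which uses NAD in DNA repair (-0.66, limma adjusted p = 0.0276). Nmnat1 (0.21, limma adjusted p = 0.308), Nmnat3 (0.36, limma adjusted p = 0.243) and the NAD-dependent deacetylase Sirt1 (-0.18, limma adjusted p = 0.429) were not DEGs, and Nmnat2 was under 0.7 FPKM in every library and was not tested. With GT against HFD, limma called 0 of 15 (5 before adjustment, median -0.01). Bst1 was the 1 DEG of 15 in HFD against ND, upregulated at 2.35 (limma adjusted p = 0.0441, median -0.08) and at 2.11 without ND replicate 1 (limma adjusted p = 0.00486), when it was again the single DEG of the list.

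**Figure D3:**
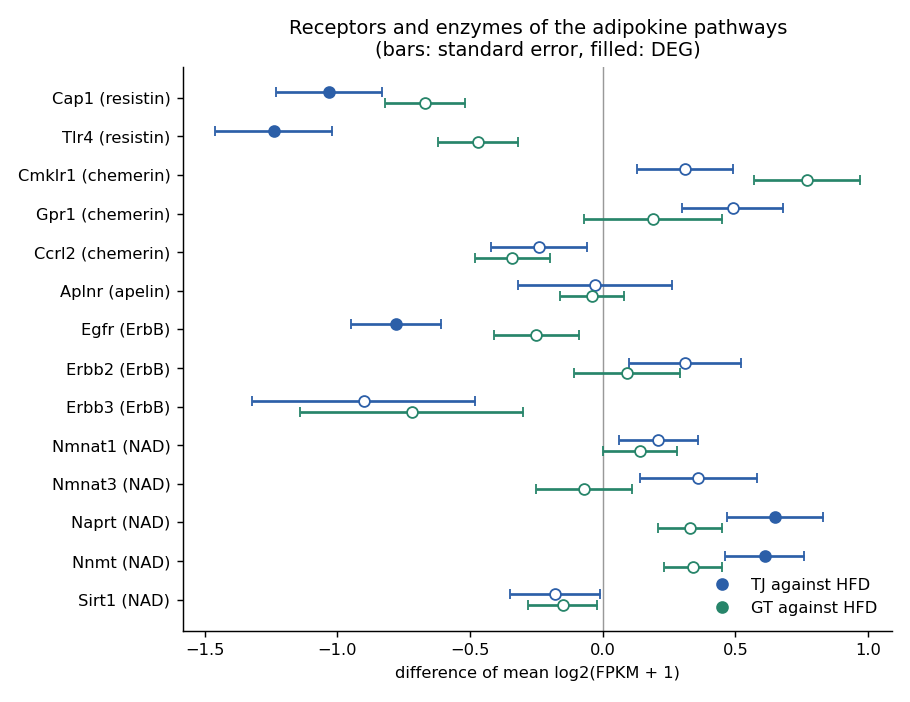
Differences of mean log2(FPKM + 1) (horizontal axis) of receptors and enzymes of the adipokine pathways in TJ against HFD (blue) and GT against HFD (green), with the standard error as bars and DEGs filled. In TJ against HFD, Cap1, Tlr4 and Egfr were downregulated at -1.03, -1.24 and -0.78 and Naprt and Nnmt upregulated at 0.65 and 0.61, and no gene of the plot was a DEG in GT against HFD.

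Other secreted factors of adipose tissue formed a list of 33 genes, of which 23 were tested in TJ against HFD, with 5 upregulated and 2 downregulated DEGs and a median of -0.16. Adipsin (Cfd) had the largest change of this list at 3.36 (limma adjusted p = 0.0248), or 2.59 without TJ replicate 2, and Rbp4, the retinol carrier, followed among those that rose at 1.57 (limma adjusted p = 0.0232). Downregulated were the lipocalin Lcn2 (-2.45, limma adjusted p = 0.0196) and the chemokine Ccl2 (-1.54, limma adjusted p = 0.0248). In GT against HFD, Cfd (1.92, limma adjusted p = 0.0338), Fgf21 (0.96, limma adjusted p = 0.0482) and Rbp4 (0.87, limma adjusted p = 0.0311) were upregulated and Ccl2 downregulated (-1.12, limma adjusted p = 0.0489), out of 24 tested (median -0.01). Between HFD and ND, Cfd was downregulated in HFD (-3.52, limma adjusted p = 0.0208, and -3.63 without ND replicate 1) and Metrnl, the factor meteorin-like, upregulated (2.67, limma adjusted p = 0.0241, and 2.46), out of 25 (median 0.33). Without ND replicate 1, 7 were upregulated and 4 downregulated (median 0.07). Leptin (Lep), which signals fat stores, was not a DEG with TJ, at 899 to 1196 FPKM in HFD and 292 to 825 FPKM in TJ (-0.96, limma adjusted p = 0.111). In TJ against GT, limma called 0 genes of these lists (0 to 6 a list before adjustment), and the list medians were between -0.38 and 0.08.

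Markers of cell types differed between the groups along with the adipokines. In TJ against HFD, 7 of 12 adipocyte markers were upregulated DEGs and 0 downregulated (median 0.75), while 11 of 12 macrophage markers were downregulated and 0 upregulated (median -1.33). Their summed level was 19485 to 21304 FPKM in HFD and 31790 to 61459 FPKM in TJ for the adipocyte markers, and 3652 to 5154 and 1097 to 2628 FPKM for the macrophage markers. In GT the sums were 26084 to 31402 and 1524 to 3350 FPKM, with 3 of 12 adipocyte markers upregulated, 0 downregulated and 0 of 12 macrophage markers called by limma against HFD, where 11 of them had an unadjusted p-value under 0.05 (median -0.93). In ND replicates 2 and 3 the adipocyte markers summed to 37162 and 25296 FPKM and the macrophage markers to 749 and 602 FPKM. Fabp4 made up 51.4% to 78.6% of the adipocyte sums. Without it they were 6809 to 7447 FPKM in HFD, 8495 to 14035 in GT, 9909 to 13160 in TJ and 13853 and 12284 in ND replicates 2 and 3, so that TJ replicate 2 was no longer the highest library. None of the 24 markers was at 0 in any library. Endothelial markers had 4 upregulated and 0 downregulated DEGs of 9 in TJ against HFD (median 0.60), and fibroblast and progenitor markers 0 upregulated and 5 downregulated of 10 (median -1.18). In whole tissue, fewer cells of a type and less RNA per cell cannot be told apart. The part of cell composition in the adipokine differences was not tested.

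Retnla was upregulated in TJ against HFD, while markers of alternatively activated macrophages included downregulated DEGs and no upregulated ones. Of 9 tested markers of this state, 0 were upregulated and 4 were downregulated in TJ against HFD, among them Mrc1 (-1.39), Folr2 (-1.31) and Lyve1 (-0.78), with limma adjusted p = 0.0311, 0.0196 and 0.0444. The list median was -0.36, beside -0.14 for all tested genes. Mean levels were higher in TJ than in HFD for Mgl2 (21.5 and 16.7 FPKM) and Ccl24 (3.45 and 2.67 FPKM). The sum of the list was 289 to 328 FPKM in HFD, 171 to 282 FPKM in GT and 166 to 195 FPKM in TJ. Retnla was 2.54 to 6.96 times the level of Mrc1 in the HFD libraries, 16.4 to 31.7 times in GT and 29.7 to 119 times in TJ. Against Adgre1, which encodes the macrophage antigen F4/80, it was 0.732 to 1.92 times in HFD, 5.30 to 13.8 times in GT and 14.0 to 142 times in TJ. In the ND libraries, Retnla was 149, 49.9 and 34.4 times Mrc1, the first in ND replicate 1. Eosinophil markers summed to 34.9 to 72.7 FPKM in HFD and 37.3 to 110.0 FPKM in TJ, and the 1 tested marker, Ear2, was not a DEG. Ear2 made up nearly all of these sums, at 31.8 to 69.3 FPKM in HFD and 36.7 to 107.8 FPKM in TJ. The highest value of any other eosinophil marker was 1.49 FPKM, for Ccr3 in HFD replicate 3. Brown adipocyte markers, listed because of Nrg4, had 0 DEGs of 3 tested in limma (2 before adjustment), and Ucp1 was at 0.475, 0.0322 and 5.05 FPKM in HFD, 4.43, 0.0395 and 0.0773 FPKM in ND, 0 to 0.117 FPKM in GT and 0 to 0.0765 FPKM in TJ.

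**Figure D4:**
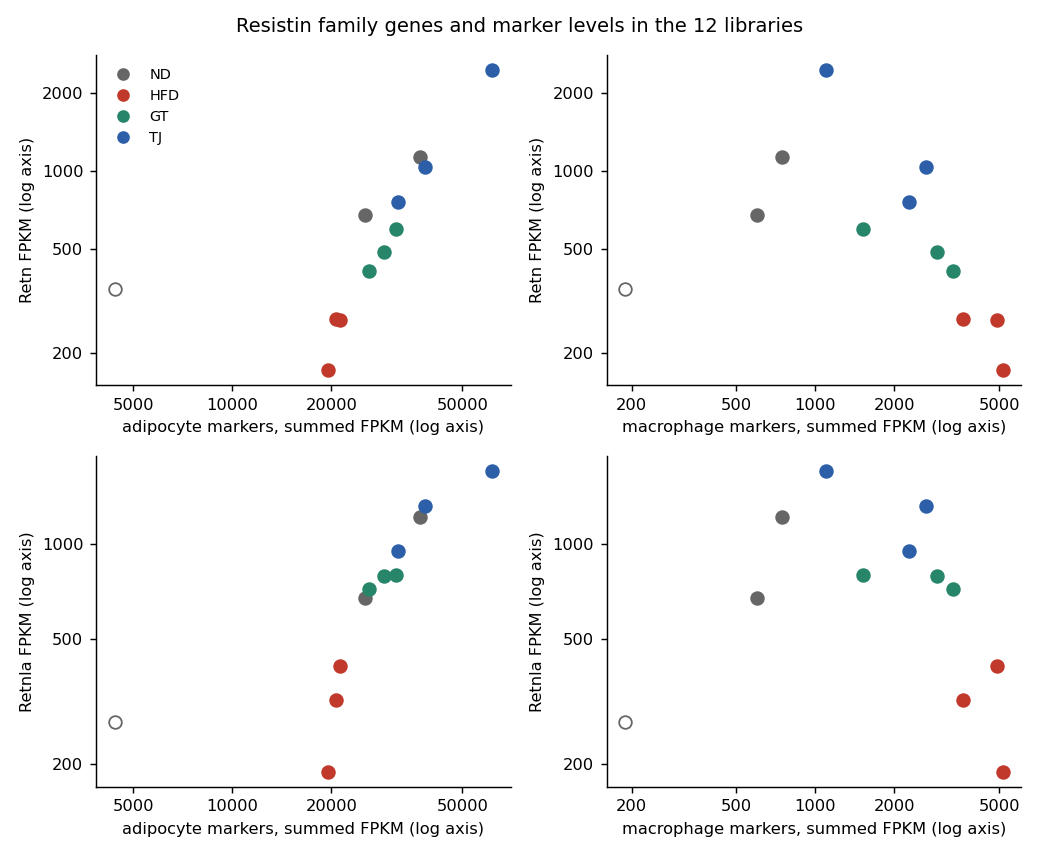
Retn (upper panels) and Retnla (lower panels) in FPKM against the summed FPKM of 12 adipocyte markers (left) and 12 macrophage markers (right), all on log axes, with 1 point per library coloured by group and ND replicate 1 as an open circle. The HFD libraries are lowest in both genes apart from ND replicate 1 for Retnla, and highest in macrophage markers at 3652 to 5154 FPKM, and TJ replicate 2 is highest in both genes and in adipocyte markers at 61459 FPKM, of which Fabp4 gives 78.6%.

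Set against Adipoq within each library, the members differed from each other. Retn was 18.9% to 26.1% of Adipoq in HFD, 27.9% to 32.7% in GT and 33.7% to 65.5% in TJ, without overlap among these groups. Nrg4 was 1.21% to 1.42% of Adipoq in HFD, 1.74% to 2.11% in GT and 1.41% to 2.09% in TJ, so that TJ overlapped HFD and GT did not. Retnla was 20.9% to 39.8% in HFD, 37.3% to 57.3% in GT and 42.2% to 54.4% in TJ. Rarres2 went the other way, at 26.1% to 30.7% in HFD, 15.5% to 28.8% in GT and 16.4% to 18.0% in TJ. In ND replicates 2 and 3, Retn was 40.6% and 37.2%, Nrg4 3.21% and 3.98%, Rarres2 9.39% and 8.71% and Retnla 43.8% and 36.8% of Adipoq, with Retnla overlapping the HFD range. In ND replicate 1 these were 173%, 2.84%, 38.4% and 134%. These ratios show unequal change of 2 genes and not which of them changed.

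**Figure D5:**
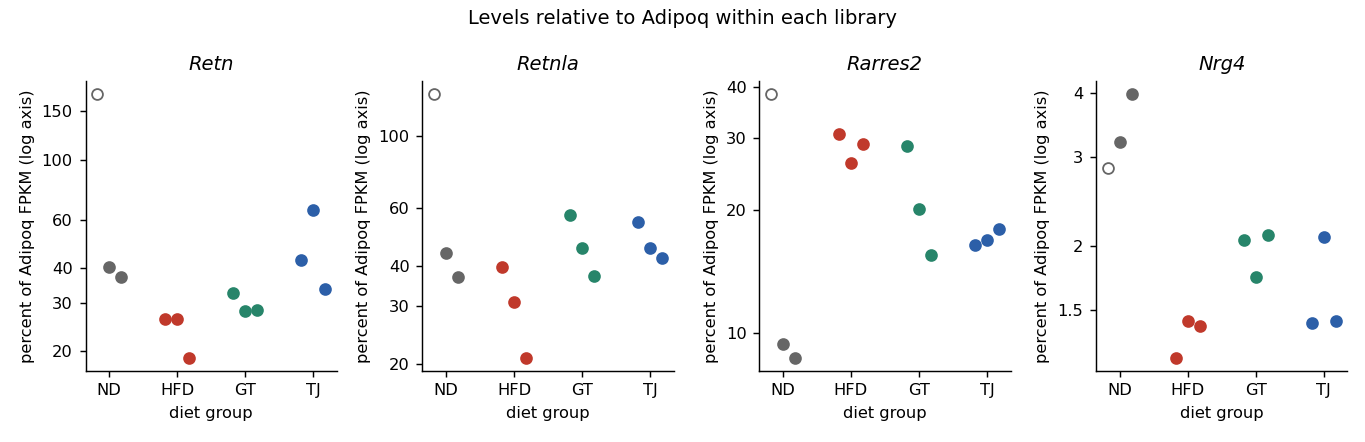
Retn, Retnla, Rarres2 and Nrg4 as percent of the Adipoq FPKM of the same library (vertical log axes), by group, with ND replicate 1 as an open circle. Retn was at most 26.1% in HFD and at least 33.7% in TJ, whereas Rarres2 was at most 18.0% in TJ and at least 26.1% in HFD.

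The pattern of each member over the 12 libraries was compared with that of the 9969 protein-coding genes averaging 5 FPKM or more, as a description on log2(FPKM + 1). ND replicate 1 weighs on these values, so r over the other 11 libraries is given too. Retn was most like Echdc3 (Pearson r = 0.973, 0.988 without ND replicate 1), Rbp7 (0.968 and 0.974) and Marc2 (0.959 and 0.970). Retnla was most like Pxmp2 (0.972 and 0.967), Rbp7 (0.956 and 0.954) and Echdc3 (0.948 and 0.940), so that Rbp7 and Echdc3 were in both sets. Nrg4 was nearest to Pck1 (0.985 and 0.980), Ivd (0.982 and 0.978) and Art3 (0.982 and 0.978). For Rarres2 the nearest were Flot1 (0.984 and 0.958), Acaa2 (0.977 and 0.957) and Grap (0.975 and 0.938), and for Apln Sema3f (0.981 and 0.940), Armcx1 (0.969 and 0.928) and Afap1l1 (0.967 and 0.946). Nampt had Rap2c (0.997 and 0.976), Wls (0.997 and 0.970) and Tmem65 (0.996 and 0.964).

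Among the members themselves, Retn and Retnla had r = 0.93 over 12 libraries and 0.95 over the 11 without ND replicate 1. Retn and Nrg4 had 0.80 and 0.87, and Retnla and Nrg4 0.83 and 0.80. Nampt had r = -0.07 with Retn over 12 libraries and -0.80 over 11, and its r changed sign with Retnla (0.17 and -0.73), Rarres2 (0.64 and -0.50), Apln (0.69 and -0.51) and Nrg4 (0.39 and -0.61). Rarres2 and Nrg4 had 0.48 and 0.06. These values include the differences between the diets, and no p-value is given for them.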

How the data were processed

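Total RNA of eWAT was made into libraries with the Illumina TruSeq RNA kit. The authors mapped the reads with STAR (2.4.0 in the submitters' processing notes), using Ensembl release 72 annotation, and the deposited FPKM values were computed by the authors with Cufflinks 2.1.1. Noncoding regions were masked, and corrections for multireads and fragment bias were on. All 23474 identifiers are mouse, although the methods give a human genome. GENCODE release M21 named 22671 of them.

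Groups came from the labels. limma 3.58.1 in R 4.3.3 (lmFit, eBayes with trend) was run on log2(FPKM + 1) with the 6 libraries of each comparison, over genes with a mean of 1 FPKM or more, which all 6 members passed. An F test used all 12 libraries. Exact permutation tests of single members used scipy 1.17.1. Where nothing is said of separate mice, p-values measure only the spread between libraries. Fold changes on this scale understate those of low genes. The members, lists and tests were chosen with earlier results of these data known. Named were the 6 members, their receptors and enzymes, up to 4 DEGs of each list and comparison with the largest change, the 3 genes most like each member and markers beside a result. Other list members named were chosen after their values were seen. The lists were written from general knowledge, and the result of 1 gene that the naming rule gives is not reported here.

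Alternatives were a pseudocount of 0.1, no filter, a mean of 5 FPKM, median-of-ratios scaling, quantile normalization, a replicate block, array weights, no trend, all libraries in 1 fit, removal of the trend with transcript length (loess, span 0.5), no fold change threshold and each library left out. Deviations of same-numbered HFD and ND libraries correlated at 0.12 to 0.55, all above 0.1. The main fit was unpaired, and the fit with the replicate number as a block is given beside it. The highest correlation between different numbers was 0.63, 4 of 6 libraries correlated best with their own number, and nothing in the labels or methods says what a number shares. Transcripts were compared with blastn 2.17.0 over at least 100 bases. The fits were tested on simulated data.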

Additional observations from a re-analysis of the deposited data

How the results depend on the processing

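Depth was only estimated from FPKM, so no counting error is given, and Apln, Nampt and Nrg4 in ND replicate 1 rest on few fragments. The members' directions held in TJ against HFD, GT against HFD and TJ against GT under all alternatives that were run. In HFD against ND, removal of the length trend turned Retnla to 0.21. There Apln turned to -0.43 with array weights, to -0.16 without ND replicate 1 (also with the other 11 libraries in 1 fit, and between -0.16 and 0.92 when single libraries were left out) and to -0.26 without the 4 libraries highest in testis or epididymis transcripts. The last leaves 1 HFD and 1 ND library, which are assumed to vary like the GT and TJ libraries of the same fit, and was chosen after seeing the data, as was the fit of 11 libraries. The causes were not tested. Of 557 alternative values for the 6 members, 469 kept direction and call, 48 lost the call, 35 gained it and 5 turned.

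For TJ against HFD (3 members and 2366 genes called), no filter gave 0 and 382, median-of-ratios scaling 5 members and 2370 genes, and the replicate block 1198 genes. All 12 libraries in 1 fit gave 0 members and 1 gene, and the 11 libraries without ND replicate 1 in 1 fit 5 members and 3003 genes. Leaving out single libraries gave 0 to 5 members and 0 to 3412 genes. For HFD against ND (0 and 255), a pseudocount of 0.1 gave 126 genes, the replicate block 0 genes, array weights 5 members and 6057 genes, all 12 libraries 1131 genes, and the 11 libraries 3 members and 2656 genes. Leaving out single libraries gave 0 to 2 members and 0 to 2098 genes, the highest without ND replicate 1. For GT against HFD (3 and 464), no filter gave 0 members and 5 genes, the replicate block 0 and 5, array weights 1589 genes, eBayes without the trend 0 and 67, all 12 libraries 0 and 1, and the 11 libraries 0 and 139. Leaving out single libraries gave 0 to 3 members and 4 to 1107 genes. For TJ against GT (0 and 18), a pseudocount of 0.1 gave 11 genes, no filter 6, the filter of 5 FPKM 6, quantile normalization 29, array weights 2 members and 1659 genes, all 12 libraries 4 genes and the 11 libraries 247. Leaving out single libraries gave 0 members and 4 to 81 genes. For the F test over 4 groups (0 and 526), quantile normalization gave 840 genes, the replicate block 1, and array weights 5 members and 12613 genes. Leaving out single libraries gave 0 to 4 members and 0 to 4134 genes.

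Over all tested genes the median fold change (log2) was -0.14 in TJ against HFD and -0.12 in GT against HFD, and -0.01 in both with median-of-ratios scaling. That scaling moved the DEGs from 949 upregulated and 1417 downregulated to 1285 and 1085 in TJ against HFD, and from 233 and 231 to 400 and 145 in GT against HFD. Quantile normalization gave 1543 and 1151, and 405 and 162, and removal of the length trend 1169 and 532, and 547 and 127. Outside HFD against ND, same-numbered deviations had correlations from -0.21 to 0.37, and 2 of 6 libraries in each comparison correlated best with their own number. In TJ against HFD the replicate block left the members' calls as they were.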
